A study of Glycine max with 5 samples.

Results

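MYB transcription factor genes were followed in soybean (Glycine max) root tips and in non-meristematic tissue. A gene was taken as a member when its symbol or one of its RefSeq synonyms, without a leading Gm, began with MYB and a digit. This gave 70 genes of 6029 that the array's annotation names through a probe set of 1 gene. The 70 genes were read by 109 probe sets, and each gene is represented by its brightest probe set, judged by mean log2 signal over the 5 arrays. Of the 70, 5 were reached through a synonym only. They were LOC547460 (MYB15), LOC778176 (MYB88), LOC778182 (MYB160), LCL3 (MYB156) and 1-3-1A (MYB69). The label was checked by name alone, since no protein sequence was used here.

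MYB proteins bind DNA through 1 or more copies of a helical repeat and form one of the largest transcription factor families of plants. Members of the family switch phenylpropanoid and flavonoid genes on or off, shape epidermal cells and root hairs, take part in responses to salt, cold and drought, and, in a single-repeat branch, form part of the circadian clock. Many soybean MYB numbers were given in order of cloning and do not mark the Arabidopsis gene of the same number, so roles below are those described for the soybean gene itself.

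The 5 samples came from genotype Bragg at 10 days of age, grown at 28 °C in an unfertilised potting mix under natural long days. The root meristem group was 3 arrays of root tips of 0.5 mm, labelled as root apical meristem. The non-meristematic group was 2 arrays, called leaf in the tissue field, while the treatment protocol speaks of all other parts of the plants, so its makeup is uncertain. Free-text descriptions of the samples mention embryo stages and go against every other field, and they were not used. Titles call the arrays biological replicates and say no more, so the p-values speak only for the spread among these arrays, which may be technical.

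Values are MAS5 signals, a linear brightness per probe set in arbitrary units, and levels of different probe sets cannot be set against each other. The 25th percentile of an array was taken as its background, which lay between 17.9 and 22.5 for root meristem and at 37 and 26.3 for non-meristematic arrays 1 and 2. Tissue markers mostly followed the labels. The photosynthesis genes CAB3, PETC, RCAALPHA and ATPC, the storage protein gene VSPA and the phloem genes SEOA, SEOC and SEOF were lower in root meristem, while PSAD was not (log2 difference 0.67 ± 0.13 SE). The histone gene H4, the replication clamp gene LOC548079 (PCNA) and the auxin carrier gene PIN2A were higher. The seed storage genes CG-1 and GY1 were at or below background on all 5 arrays, and GY2 was above it on 1 non-meristematic array. In bulk tissue, fewer cells of a type and less RNA per cell cannot be told apart.

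MYB genes moved in both directions, and most did not pass the test. Of the 70 genes, 53 lay above background on at least 2 arrays and were tested (limma across all probe sets, Benjamini-Hochberg adjustment). A gene was called at an adjusted p below 0.05 with a log2 difference of at least 1. Called higher in root meristem were 6 genes (11.3% of those tested), against 14.4% of all probe sets. Called lower were 9 genes (17.0%), against 18.1% of all probe sets. In either direction 15 genes (28.3%) were called, against 32.5% of all probe sets. The shares were also taken over all genes named through a probe set of 1 gene, LOC-numbered ones included, each read by its brightest. Of those tested, 18.6% were called higher, 21.0% lower and 39.7% either way. The family's shares lay below these, and the difference was not tested. The groups did not overlap at 32 of the 53 genes (60.4%), against 63.7% of all probe sets. The median log2 difference, root meristem minus non-meristematic, was -0.21 for the family and 0.07 for all probe sets.

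The count of higher genes depended on scaling and on single arrays. It was 10 (18.9%), with 8 lower (15.1%), after quantile normalization and 13 (24.5%), with 9 lower (17.0%), after median centring. The share of all probe sets called higher moved likewise, to 18.5% and 24.8%, and the share called lower was 15.2% after either. Those scalings moved the median of all probe sets to 0.30 and 0.43, and that of the family to 0.04 and 0.14. Without non-meristematic array 1 the count of higher genes was 18 of 49 (36.7%), against 18.1% of all probe sets. Without non-meristematic array 2 it was 3 of 48 (6.25%), against 18.5%. Without root meristem array 1 it was 2 of 52 (3.85%, against 12.6%), and without array 2 it was 3 of 53 (5.66%, against 11.3%). With root meristem array 1, 2 or 3 left out, the lower genes were 10 of 52 (19.2%), 9 of 53 (17.0%) and 9 of 53 (17.0%). The shares of all probe sets called lower were 16.2%, 15.1% and 15.5%.

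**Figure D1:**
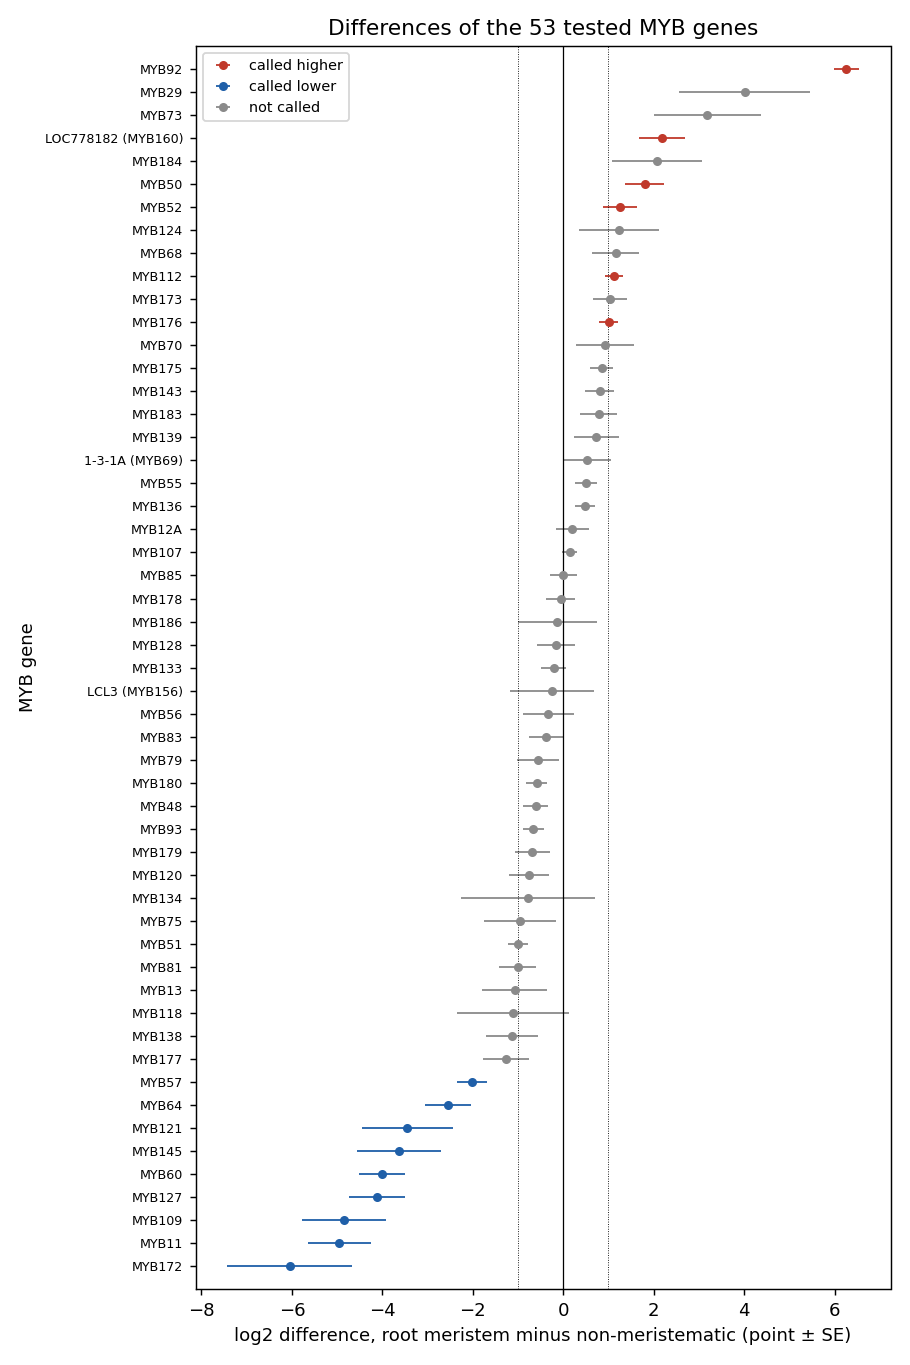
Log2 difference (root meristem minus non-meristematic, horizontal axis, point with SE bars) of the 53 tested MYB genes, ordered by size. Red points are the 6 genes called higher, blue points the 9 called lower and grey points the 38 not called, with dotted lines at the minimum size of 1. MYB92 stands at the high end with a narrow bar, while MYB29 and MYB73 have wide bars and were not called.

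MYB92 had the lowest adjusted p of the genes called higher in root meristem. In transgenic Arabidopsis the soybean genes MYB76, MYB92 and MYB177 were studied for tolerance to salt and freezing. On the root meristem arrays the MYB92 signals were 946.1, 1088 and 734.3, and on the non-meristematic arrays 13.8 and 10.2. All root meristem arrays were far above background and both non-meristematic arrays below it. The mean was 923 ± 178 (SD, n = 3) against 12.0 ± 2.55 (n = 2), a difference of at least 29.2-fold with the dim group held at background (adjusted p = 4.19e-05, limma). A second MYB92 probe set gave 1036.4, 1131.3 and 864.2 against 10.1 and 10.2, at least 32.2-fold. The third MYB92 probe set behaved otherwise, with 161.4, 120.8 and 99.4 against 124.6 and 64, and was not called (log2 0.48 ± 0.38, adjusted p = 0.354). Its suffix marks it as able to cross-hybridize with other transcripts, as does that of the chosen probe set, while the second is unmarked. The MYB92 call was kept under all 16 alternative settings. These were not all separate checks. Judging by adjusted p alone could not lose a call, and blocking by replicate number gave the differences found without root meristem array 3. MYB92 and LOC778182, described below, were above background on no non-meristematic array. They entered the test only through root meristem, so that with the filter they had to differ in this direction.

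MYB177 was not called. It had signals of 65.6, 24.4 and 25.2 in root meristem against 90.3 and 74.4. Both sets of values were separate, yet the spread between root meristem arrays was wide (log2 -1.26 ± 0.51, adjusted p = 0.0936, limma). MYB76 was at or below background on all 5 arrays, with 19.9, 6.6 and 8.5 against 2.5 and 1.3, and was not tested. MYB84, linked to drought tolerance in soybean, and MYB14, linked to plant architecture and drought, were also at or below background everywhere. MYB81 had 113.2, 121 and 110.5 against 366.2 and 146.2 (log2 -1.01 ± 0.40, adjusted p = 0.0867), so that 1 of the non-meristematic arrays lay close to the root meristem values.

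MYB176 was called higher in root meristem. It activates the chalcone synthase gene CHS8, whose product starts the flavonoid skeleton. Its signals were 4329.3, 3075.9 and 2893.9 in root meristem against 1831.7 and 1532. Every root meristem array was above both non-meristematic arrays, with means of 3433 ± 782 and 1682 ± 212, a 2.02-fold difference (log2 1.01 ± 0.21, adjusted p = 0.0106, limma). The size was just past the minimum of 1 and fell under it without root meristem array 1 (log2 0.83), without non-meristematic array 2 (0.88) and after quantile normalization (0.83). MYB175, which shares a design cluster with MYB176, had 2117.5, 1541.8 and 1208.5 against 943 and 813.3 (log2 0.85 ± 0.26, adjusted p = 0.0386), under the minimum size. A pair of probe sets that the annotation gives to both genes was higher (log2 1.16 ± 0.29 and 1.09 ± 0.30). The MYB176 probe set is marked as able to cross-hybridize, and its signal may include MYB175.

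MYB29, which activates the isoflavone synthase gene IFS2 and CHS8, was read by a pair of probe sets on either side of the threshold. The chosen one had 54.7, 138.6 and 73.8 in root meristem against 32.7 and 0.8, both at or below background, and was not called (log2 4.01 ± 1.44, adjusted p = 0.0655, limma). The unmarked one had 69.1, 139.5 and 83.3 against 27.3 and 0.6 and was called, at least 2.98-fold higher (adjusted p = 0.0468). Both probe sets showed the same order of arrays, and neither was above background on a non-meristematic array, so that both entered the test through root meristem alone. With signals held at the array background the chosen probe set was called (log2 1.40, adjusted p = 0.0349). It was also called without non-meristematic array 1 (log2 6.69, a value that rests on a signal under background) and not without array 2 (1.33).

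MYB173 binds the promoter of a chalcone synthase gene in the salt response of soybean. Its signals were 524.2, 318.8 and 215.9 against 154.8 and 167.2, with all root meristem arrays above the others (log2 1.04 ± 0.38, adjusted p = 0.0701, limma). It was called after quantile normalization, after median centring and without root meristem array 3 (log2 1.35, adjusted p = 0.0332). MYB133, a single-repeat regulator of isoflavonoid genes, had 112.1, 78.4 and 88 against 115.6 and 97.8, so that the groups overlapped (log2 -0.21 ± 0.28). All 3 of its probe sets were tested and none was called.

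Enzyme genes of the pathway that these MYB proteins act on differed in both directions. Of 29 phenylpropanoid and flavonoid genes, 25 were tested, and 12 were called higher, 9 lower and 4 not, which is 84.0% called against 32.5% of all probe sets. CHR5, a chalcone reductase gene, had 7375.2, 7151.1 and 7240.4 in root meristem against 32 and 19.7, at least 233-fold higher, and CHR1 had a log2 difference of 6.12 ± 0.25. CHR5 and CHR1, and FLS1 and LAR1 below, were named for the largest fitted differences in their direction. FLS1, a flavonol synthase gene, had 3.9, 13.3 and 14.6 against 922.8 and 1320, at least 54.4-fold lower, and LAR1, a leucoanthocyanidin reductase gene, was at least 4.27-fold lower. The fitted LAR1 difference rests on signals under background, and UGT78K1 (at least 13.8-fold lower) and CHI2-A (9.77-fold lower, above background on all arrays) were further apart than that bound. The genes known as targets of MYB176 and MYB29 were called higher, with log2 differences of 4.66 ± 0.25 for CHS8 and 5.11 ± 0.28 for IFS2. Their probe sets, like those of CHR5 and CHR1, carry a cross-hybridization suffix, and IFS1 is among the names of IFS2. These signals may therefore include related genes. No gene of the partner list, which held basic helix-loop-helix and WD40 names, matched a symbol or synonym, so partners of MYB proteins were not analysed here.

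MYB73, a soybean MYB protein that raised lipid content in transgenic plants, was high on all root meristem arrays and uneven in the other group. Its signals were 917.3, 1242.6 and 1087.8 against 585.4 and 23.6. Non-meristematic array 1 was above background and array 2 below it, and both were below every root meristem array. The gene was not called (log2 3.19 ± 1.18, adjusted p = 0.0712, limma), and its second probe set gave nearly the same result (288.8, 491.3 and 365.6 against 175.7 and 9, log2 3.23 ± 1.11, adjusted p = 0.0576). Without non-meristematic array 1 it was called (log2 5.51, resting on a signal under background), and without array 2 the difference was 0.88. MYB73 was named after its values were seen.

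MYB112 and MYB50, which share a design cluster, were both higher in root meristem. MYB112 had 1200.7, 1186.9 and 1376.2 against 656.8 and 501.6, with no overlap and the narrower spread of the pair (log2 1.12 ± 0.20, adjusted p = 0.00533, limma). MYB50 had 1280, 1155.2 and 973.3 against 559.1 and 188.4 (log2 1.80 ± 0.44, adjusted p = 0.0179). Probe sets given to both genes were also higher, with log2 differences of 1.02 ± 0.20 and 1.01 ± 0.18. An unmarked MYB50 probe set overlapped between the groups, with 805.6, 864 and 734.4 against 779.1 and 320.9, and was not called (log2 0.68 ± 0.37). Without non-meristematic array 2 the MYB112 difference fell under the minimum size (log2 0.93). The MYB50 call was lost without root meristem array 1 (adjusted p = 0.0596) or array 2 (0.0626). Its log2 difference was 2.58 without non-meristematic array 1 and 1.01 without array 2.

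The other genes called higher were MYB52 and LOC778182 (MYB160). MYB52 had 904.1, 742.2 and 534 against 427.4 and 204.6, close to the threshold (log2 1.26 ± 0.37, adjusted p = 0.0352, limma). Its call was lost without root meristem array 1 (adjusted p = 0.108), root meristem array 2 (0.107) or non-meristematic array 2 (0.0975), and with no intensity trend (0.0648). An unmarked probe set given to both MYB62 and MYB52 overlapped between the groups and was not called (233.9, 202 and 141.5 against 208.2 and 70.8, log2 0.63 ± 0.48, adjusted p = 0.338). LOC778182 had 80.6, 91 and 36.8 against 12.2 and 16.7, both below background, and was at least 2.07-fold higher (log2 2.18 ± 0.51, adjusted p = 0.0154). Its call was lost without root meristem array 1 (adjusted p = 0.0626) or array 2 (0.07), and with signals held at the array background (0.0947).

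Of the 9 genes called lower in root meristem, 8 were above background on at most 1 root meristem array. In 4 of them, MYB172, MYB11, MYB145 and MYB121, no root meristem array was above background. These 4 entered the test only through the non-meristematic arrays, so that with the filter they had to differ in this direction. In MYB109, MYB127, MYB60 and MYB64 only 1 root meristem array was above background. MYB57 was the only lower gene above background on all 5 arrays. No role in soybean is given here for any of the 9.

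MYB172 had signals of 4, 0.3 and 5.9 in root meristem against 146.3 and 110.2, at least 6.26-fold lower (adjusted p = 0.0141, limma). Its tested probe sets all carry a suffix for probes that can match several transcripts. The unmarked probe set of this gene was below background on all arrays (1, 0.6 and 0.3 against 9.2 and 14.7). With unmarked probe sets only, MYB172 was not tested. MYB11 had 2.9, 10.4 and 3.9 against 124.4 and 185.4, at least 7.49-fold lower (adjusted p = 0.00234). The other probe sets of MYB11 were below background on all arrays and were not tested. On the non-meristematic arrays they had 21.7 and 11.7, and 8.3 and 0.8. MYB145 was at least 5.86-fold lower, with 22, 15.6 and 2.6 against 97.3 and 145.2. The groups were far apart on the chosen probe sets of these 3 genes, and the fitted log2 differences of -6.05, -4.95 and -3.63 rest on signals under background. MYB121 had the smallest such fold of the 4, with 4.2, 1.4 and 5.1 against 39.4 and 29.1, at least 1.67-fold lower (adjusted p = 0.0337). Its call was lost without root meristem array 1 (adjusted p = 0.0524) or array 2 (0.0509), after quantile normalization (0.0569) and with signals held at the array background (0.0728). With either non-meristematic array left out, all 4 genes failed the filter and were not tested.

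MYB109 had 14.9, 2.3 and 19.1 in root meristem against 199.9 and 315.1 (log2 -4.85 ± 0.92, adjusted p = 0.00715, limma). The fitted MYB109 difference rests partly on signals under background, and it was -3.60 with signals held at the array background and -3.90 without root meristem array 2. MYB60 had 39, 16.9 and 15.6 against 469 and 260.4 (log2 -4.01 ± 0.50, adjusted p = 0.00151). MYB127 had 22.4, 12.9 and 18.2 against 149 and 605.4 (log2 -4.11 ± 0.62, adjusted p = 0.00294). The non-meristematic arrays were all above the root meristem arrays, and in MYB127 array 2 was also far above array 1 (log2 -5.12 without array 1 and -3.10 without array 2). These 3 calls were kept under all 16 alternatives, which overlap as said for MYB92. MYB109 and MYB127 have 1 unmarked probe set each, so for them the alternative choices of probe set used the same signals. MYB64 had 10.3, 24.9 and 13.6 against 76 and 104.5 (log2 -2.55 ± 0.51, adjusted p = 0.00846). The RefSeq table lists MYB120 as a synonym of MYB64 and they share a design cluster, but they were counted here as separate genes. MYB120 had 23.8, 18.9 and 17.1 against 33.3 and 33.6 and was not called (log2 -0.76 ± 0.44, adjusted p = 0.216, limma). MYB57 had nearly equal root meristem signals of 73.9, 70.6 and 70.5 against 207.6 and 404.8, a 4.05-fold difference with means of 71.7 ± 1.93 and 306 ± 139 (log2 -2.02 ± 0.33, adjusted p = 0.00421).

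**Figure D2:**
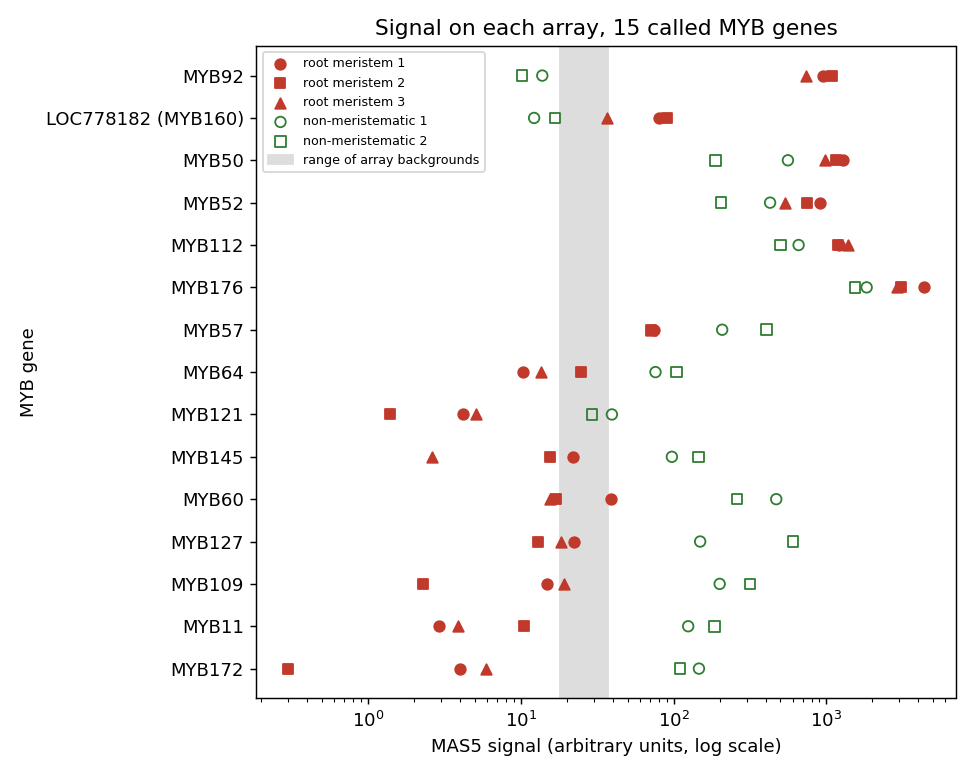
MAS5 signal on each array (horizontal log axis) of the 15 called MYB genes, with filled red symbols for the 3 root meristem arrays, open green symbols for the 2 non-meristematic arrays and a grey band for the range of array backgrounds, 17.9 to 37. The genes called lower lie mostly in or left of the band on the root meristem arrays, while MYB112, MYB50, MYB52 and MYB176 are well above it in both groups.

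Several probe sets could be compared at 18 genes, and at 6 of them the calls differed while no sign did. MYB60 and MYB57 were called lower on all 3 of their tested probe sets each, and MYB172 and MYB145 on both of theirs. MYB92, MYB29 and MYB50, described above, were among the 6. MYB12A was another, with probe sets far apart. Its chosen probe set had 118.1, 95.3 and 86 in root meristem against 123.4 and 60.2 and was not called (log2 0.20 ± 0.37, adjusted p = 0.706, limma), and without non-meristematic array 2 its sign turned (log2 -0.32). Another MYB12A probe set had 248.9, 237 and 182 against 21.7 and 1.3, at least 7.07-fold higher, and one with a cross-hybridization suffix had 114.7, 112.9 and 77.6 against 59.3 and 30 (log2 1.25 ± 0.39). The groups overlapped on the chosen probe set and not on the others. The remaining MYB12A probe set was below background on all arrays. With all tested probe sets of the gene averaged, MYB12A was called higher (log2 2.27, adjusted p = 0.0208).

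MYB51 and MYB48 were the remaining genes with differing calls, both on the low side in root meristem. MYB51 had 197.6, 180.4 and 163.1 against 366.2 and 353, with little spread inside each group and no overlap. The adjusted p was 0.0117 (limma), but the difference was just under the minimum size. Its second probe set, with 43.9, 62.4 and 55.6 against 128.7 and 117.9, was called lower (log2 -1.21 ± 0.29). MYB48 was not called on its chosen probe set (131.9, 163.4 and 114 against 239.1 and 177.1, log2 -0.61 ± 0.28), while its unmarked one was lower (99.9, 74.7 and 62.9 against 174.2 and 185, log2 -1.21 ± 0.29).

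**Figure D3:**
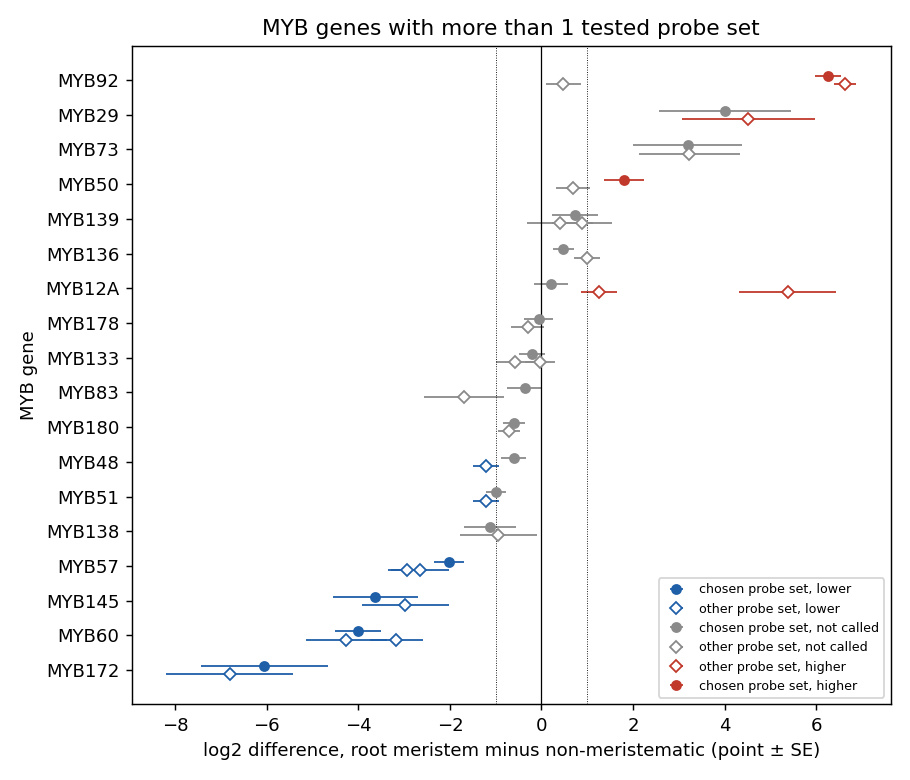
Log2 difference (horizontal axis, point with SE bars) of every tested probe set at the 18 MYB genes with more than 1, with filled circles for the chosen probe set and open diamonds for the others, coloured by call. MYB60, MYB57, MYB172 and MYB145 have every tested probe set on the lower side, while MYB92 and MYB12A each hold a probe set near 0 beside at least 1 far to the right. Positions of probe sets with a group under background are fitted values, not measured sizes.

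A further 15 probe sets are given by the annotation to several genes of which at least 1 is a MYB gene, and they were not used to choose members. The pair MYB128 and MYB129 held 4 of them. These 4 shared probe sets were all called lower in root meristem, with log2 differences of -3.15 ± 0.38 and -3.35 ± 0.53 for the pair above background on a root meristem array. The other pair was above it on none and was at least 5.5-fold and 2.95-fold lower. On the shared probe set with the strongest signal the values were 23.2, 14 and 24.2 against 161.9 and 191.8, with no overlap. The probe set given to MYB128 alone showed no such gap, with 35.2, 33.4 and 45.9 against 58.8 and 30.4 (log2 -0.16 ± 0.43, adjusted p = 0.79, limma). The RefSeq table lists MYB129 as a synonym of MYB128, while the array's annotation keeps a separate Entrez number for each. Counted as 1 gene, the pair would be represented by the shared probe set above and be called lower, whereas here MYB128 is among the genes not called. The pair was named after its values were seen. In all, 13 design clusters held probe sets of more than 1 MYB gene, and signals inside such a cluster may be shared.

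The non-meristematic arrays disagreed on a group of MYB genes. Of 49 tested members above background on at least 1 of these arrays, 7 (14.3%) were at least 4-fold higher on array 1 and 1 (2.04%) on array 2, against 4.79% and 0.802% of all probe sets so defined. With signals under background held at it, the counts were again 7 and 1, against 3.73% and 0.482%, an alternative added after the data were seen. Array 1 was the higher one for MYB134, MYB118, MYB73, MYB124, MYB186, LCL3 and MYB70, and array 2 for MYB127. These genes were named after their values were seen. A like split was seen at WRKY genes, of which 15 of 44 (34.1%) were at least 4-fold higher on array 1, and at NAC genes (13 of 18, 72.2%), but at 0 of 60 bZIP genes. The array 1 background was also the higher of the pair, 37 against 26.3.

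The clock genes of the family were among those that differed between these arrays. LCL3, also named GmLHY2a, belongs to the single-repeat group of clock proteins that act in the morning. Non-meristematic arrays 1 and 2 read 143.8 and 18.7 for it, a gap of at least 5.47-fold with array 2 held at background, and root meristem 94.6, 30.8 and 28.9. MYB114, also named GmLHY2b, had 291.3 and 4.6 on the non-meristematic arrays and 20.4, 15.5 and 9.8 in root meristem. It was above background on 1 array only and was not tested. MYB186, a name that the RefSeq table gives as a synonym of the clock gene LCL1, had 206.5 and 23.9 around 58.5, 97.9 and 46.5. MYB134, a name also listed as a synonym of MYB114, was counted here as a separate gene, though the pair may be 1 gene. The MYB134 signals were 822.9 and 14.9, a gap of at least 31.3-fold, with 76.7, 78.9 and 44.7 in root meristem lying between them. MYB118, described for salt and drought tolerance in soybean, likewise had 433.5 and 16.1 on either side of 43.5, 32.6 and 40.6. For these genes the group mean describes neither non-meristematic array, and the SE of the log2 difference was 0.93 for LCL3, 1.23 for MYB118 and 1.49 for MYB134.

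**Figure D4:**
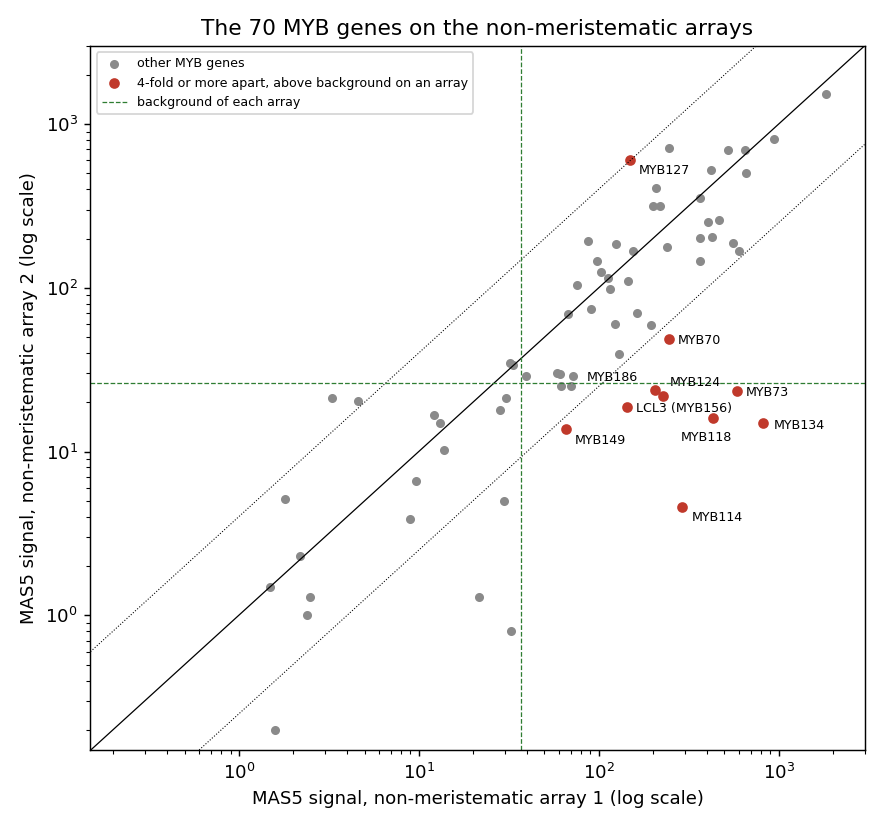
MAS5 signals of the 70 MYB genes on non-meristematic array 1 (horizontal log axis) and array 2 (vertical log axis), with a solid line of equality, dotted lines at a 4-fold difference and dashed lines at each array's background. The 10 red points are genes at least 4-fold apart and above background on at least 1 of the arrays, of which 9 are higher on array 1 and 2 (MYB114 and MYB149) were not tested. MYB114 and MYB134 share a name and may be 1 gene.

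The 38 tested genes that were not called had log2 differences from -1.26 to 4.01, and the groups overlapped at 21 of them. Some were measured with little spread. MYB107 had 765.5, 750.6 and 716 in root meristem against 653.3 and 693.1, and its log2 difference was 0.14 ± 0.17. MYB55 had 394.7, 388.2 and 342.2 against 220 and 316.9 (log2 0.50 ± 0.24, adjusted p = 0.144, limma), and MYB136 had 171.3, 157.1 and 148.2 against 112.8 and 114.3 (log2 0.48 ± 0.23). The second MYB136 probe set, unmarked, was further apart and just under the minimum size (162.2, 135.5 and 149.5 against 90.3 and 62.2, log2 0.99 ± 0.28, adjusted p = 0.0295). MYB85 had 55.2, 81.5 and 71.7 against 67.8 and 69.5, with the non-meristematic values inside the range of the others. MYB93 and MYB180, which share a design cluster, did not overlap between groups and had similar differences, -0.66 ± 0.24 and -0.59 ± 0.24, both short of the threshold (adjusted p = 0.0722 and 0.0901).

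The remaining 17 genes were above background on fewer than 2 arrays and were not tested. Of these, 13 were at or below background on all 5 arrays, among them MYB76, MYB84, MYB14, MYB101, MYB82, MYB99, LOC547460 (MYB15) and LOC778176 (MYB88). The other 4 were above it on 1 array each. MYB114, MYB142 and MYB149 were above background on non-meristematic array 1, with signals of 291.3, 70.2 and 65.9, and MYB185 on root meristem array 3, with 21.4. A signal below background on an array gives only an upper bound, and no order between the tissues was read for these genes. With no filter MYB142 was called lower in root meristem, a result that rests on signals under background.

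Beside other transcription factor families on the array, the MYB family had a share of called genes between theirs. Of 62 tested bZIP genes 13 were higher and 9 lower (35.5% called), of 46 WRKY genes 6 were higher and 6 lower (26.1%), and of 19 NAC genes 5 were higher and 3 lower (42.1%). The median log2 differences were 0.11 for bZIP, -0.15 for WRKY and 1.12 for NAC genes, against -0.21 for MYB genes. Over all 5648 tested genes named through a probe set of 1 gene, 39.7% were called. Differences between the families were not tested.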

How the data were processed

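Total RNA (6 µg per sample, per the labels' protocols) was labelled with biotin and hybridised to an Affymetrix soybean array. The deposited values are MAS5 intensities on a linear scale, made by the authors, per the submitters' processing notes; the sources used here give neither version nor scaling target. Of its 37593 probe sets, 8677 had 1 gene in the platform annotation, 370 had several and 28546 were not listed. Symbols were updated through Entrez numbers with a RefSeq table of Glycine_max_v4.0, used for names only; 62 of the 70 MYB genes matched it and 8 kept the annotation's symbol. MYB145 had a pair of Entrez numbers and was counted as 1 gene.

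Signals were floored at 0.1 and log2-transformed without further scaling between arrays. Probe sets above the 25th percentile of the array on at least 2 arrays were fitted with limma 3.58.1 in R 4.3.3 (lmFit, eBayes with an intensity trend), 3 root meristem against 2 non-meristematic arrays, with Benjamini-Hochberg adjustment over 30941 probe sets. The fit had 3 residual degrees of freedom and borrowed 3.68. The smallest fold allowed by background ("at least") holds each dim array at the higher of its background and its own signal. The number of arrays limits the precision.

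The members, lists and tests were chosen with earlier results of these data known. Genes were named when called or when their probe sets differed in call. Of the enzyme list, the 2 with the largest fitted difference in each direction were named, some of which rest on signals under background. CHS8 and IFS2, as described targets, and UGT78K1 and CHI2-A, compared with LAR1, were named outside this rule. MYB73, MYB173, the clock genes, genes named for a described role and genes of little spread were added after their values were seen. Alternatives covered scaling, filter, floor, variance model, replicate block, choice of probe set, threshold and leaving out each array. Protein sequences, and with them the planned repeat classes, were not analysed here, and some marker genes listed at the start (LEA and PM genes) were not used.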

Additional observations from a re-analysis of the deposited data

How the results depend on the processing

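The count of MYB genes higher in root meristem, 6 of 53, was 10 after quantile normalization (18.9%, against 18.5% of all probe sets), 13 after median centring (24.5%, against 24.8%) and 1 when tested against a log2 difference of 1 (limma treat, which left MYB92, 1.89% against 3.75%), and ranged from 2 to 18 with 1 array left out. The count of lower genes, 9, was 5 with limma treat (9.43%, against 9.28%) and 5 (10.4%, against 14%) when a probe set had to be above background on at least 3 arrays, a filter that removed MYB11, MYB121, MYB145 and MYB172 from the test. Under the other alternatives both counts stayed within 1.5 times, but a similar count did not mean the same genes. Without non-meristematic array 2, MYB11, MYB121, MYB145 and MYB172 were no longer among the lower genes and other members took their place. The family's median log2 difference of -0.21 ranged from -0.33 to 0.31 with 1 array left out, the upper value without non-meristematic array 1. MYB12A ranged from -0.32 to 0.72 in the same way. The cause of these changes was not tested. With a non-meristematic array left out, the lone remaining array is assumed to vary like the root meristem arrays. Over the 21 genes that were called, had differing probe sets or were added (MYB73 and MYB173), 274 results kept direction and side of the threshold, 28 lost the call, 18 gained it and 1 turned its sign. Gains and turns of sign by the other members are not in these counts. Among those, MYB134 and MYB186 turned direction with the non-meristematic array that was left out. Calls lost because a gene was not tested in a setting are not counted either. These were MYB11, MYB121, MYB145 and MYB172 with the filter of at least 3 arrays and with either non-meristematic array left out. Others were MYB52, MYB172 and MYB176 with unmarked probe sets only. The titles give both groups replicate numbers, but nothing says that a number marks a shared plant or day, and deviations of same-numbered arrays correlated at 0.0987 and -0.0888 across probe sets. With the replicate number as a block, 9 genes were higher (17.0%, against 10.8% of all probe sets) and 8 lower (15.1%, against 13.7%). MYB121 was lost and MYB173, MYB175 and MYB184 were gained. Number 3 occurs in root meristem only, so with the block root meristem array 3 added nothing to the difference between groups. The fitted differences were those of the fit without that array (MYB92 log2 6.42 in both).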
